A study of Mus musculus with 2 samples.

Results

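TGF-β and BMP signalling in mouse Langerhans cells was described from 10 genes: the ligands Tgfb1, Tgfb2, Tgfb3 and Bmp7, the receptors Tgfbr1, Tgfbr2 and Bmpr1a, and the SMAD genes Smad2, Smad3 and Smad7. They were taken by symbol, and all 10 had a row among the 55487 genes of the count table. Langerhans cells are dendritic cells that reside in the epidermis and present antigen there. They had been sorted on CD207 and MHC class II from digested ears of Htr2a-deficient mice, which lack the serotonin 2A receptor. After sorting they received imiquimod, an agonist of Toll-like receptor 7, together with an agent labelled a-CD40L, for 24 hours. The series title calls the cells monocyte-derived, whereas the protocols describe this sort. The single group held 2 libraries, called library 1 and library 2, each from HTR2A-/- cells under the same treatment. Neither wild-type nor unstimulated cells were analysed here, so no value is an effect of the genotype or of the treatment, and the age of the mice is not given in the sources used here, nor is the sex. The labels name neither the promoter nor the part of the gene behind the deletion, and they do not say whether animals were pooled.

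TGF-β ligands are made as latent precursors and act, once released, through a complex of the type II receptor TGFBR2 and the type I receptor TGFBR1, which phosphorylates SMAD2 and SMAD3. BMP ligands act through type I receptors such as BMPR1A and through SMAD1 and SMAD5, and both branches use the common partner SMAD4. SMAD7 is induced by the pathway and restrains it. Langerhans cells depend on TGF-β for their development and for staying in the epidermis, and BMP7 has been linked to their differentiation.

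Levels are given as CPM, which scales the counts of each library to one and the same total, and, wherever genes are compared with each other, as CPM per kb of exon. Library 1 held 69925160 counts and library 2 held 42264685. Since rows of genes that skin is not known to use also carried counts, a gene was taken as above background only where its level per kb exceeded the 95th percentile of the 1135 olfactory receptor genes. That limit was 0.761 CPM per kb in library 1 and 1.58 CPM per kb in library 2. The targeted gene Htr2a had 77 counts in library 1 and 117 in library 2 and lay within background in both libraries, although the deleted part of the gene is not given. Xist was high in library 2 (1384 CPM, against 3.90 in library 1) and the Y-linked Ddx3y in library 1 (149 CPM, against 0.0946 in library 2), as in material of opposite sex. Langerhans cell markers were present, with Cd207 at 1125 CPM in library 1 and 1052 in library 2 and 10 of 10 markers above background in both libraries. Keratinocyte markers were present as well, with 11 of 12 above background in both, all with counts in both, and a sum of 4330 CPM in library 1, against 15187 CPM in library 2. Because the material is bulk RNA, fewer cells of a type and less RNA per cell cannot be told apart.

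The 250 bases before the start of 3 members are shown because these genes mark the extremes of the results: Tgfb1 had the highest mean level per kb, Tgfbr1 the largest difference between libraries, and Tgfb2 was not above background. The sequences come from RefSeq on GRCm38.p6, which had entries used here for 6 of the 10 members, and are written 5′ to 3′ in the direction of the gene. The windows are chr7:25686752-25687001 on the plus strand for Tgfb1, chr4:47352972-47353221 on the plus strand for Tgfbr1 and chr1:186705990-186706239 on the minus strand for Tgfb2. Capitals mark matches, on either strand, to the GC box GGGCGG, the TATA box TATAAA and the CAGAC core of the SMAD-binding CAGA box.
Tgfb1: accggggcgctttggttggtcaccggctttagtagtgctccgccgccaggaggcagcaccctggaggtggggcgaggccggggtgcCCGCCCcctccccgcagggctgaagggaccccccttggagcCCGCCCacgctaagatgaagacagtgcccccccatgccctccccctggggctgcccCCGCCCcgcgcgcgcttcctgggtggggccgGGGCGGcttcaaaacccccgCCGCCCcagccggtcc
Tgfbr1: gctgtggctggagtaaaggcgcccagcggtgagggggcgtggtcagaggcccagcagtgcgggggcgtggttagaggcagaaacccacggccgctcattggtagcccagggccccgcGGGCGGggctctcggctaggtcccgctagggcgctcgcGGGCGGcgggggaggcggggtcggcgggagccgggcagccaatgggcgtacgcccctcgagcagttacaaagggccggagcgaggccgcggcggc
Tgfb2: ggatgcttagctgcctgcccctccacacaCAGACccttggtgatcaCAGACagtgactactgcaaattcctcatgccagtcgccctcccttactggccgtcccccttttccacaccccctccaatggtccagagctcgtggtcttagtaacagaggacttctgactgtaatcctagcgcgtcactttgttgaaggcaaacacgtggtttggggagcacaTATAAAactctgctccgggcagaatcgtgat

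The Tgfb1 window held 5 GC boxes and the Tgfbr1 window 2, and neither held a TATA box or a CAGAC core. The Tgfb2 window held 1 TATA box and 2 CAGAC cores and no GC box. Of 32851 promoter windows of the same length, 32.7% held a GC box, 12.4% a TATA box and 42.2% a CAGAC core, so each motif is common, and a match describes letters, not binding.

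Among the ligands, Tgfb1 was by far the most abundant and Tgfb2 could not be told from background. Tgfb1 (ENSMUSG00000002603, GRCm38 chromosome 7, 25687002 to 25705077, plus strand), which encodes the ligand that Langerhans cells themselves make, was counted 10911 times in library 1, against 2699 times in library 2. In CPM it reached 156 in library 1, with an exact Poisson interval (95%) of 153 to 159, and 63.9 in library 2, with an interval of 61.5 to 66.3. The mean was 109.9 ± 65.2 CPM (SD, n = 2). Both libraries were thus far above background, at 40.7 times the limit per kb in library 1 and 8.01 times in library 2.

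Tgfb2 (ENSMUSG00000039239, chromosome 1, 186622792 to 186705989, minus strand), the ligand isoform best known from development, had 230 counts in library 1 and 375 in library 2. Its level of 0.568 CPM per kb in library 1 stood at percentile 89.6, and that of 1.53 CPM per kb in library 2 at percentile 94.4, of the olfactory receptor genes, below the limit in both libraries. Tgfb3 (ENSMUSG00000021253, chromosome 12, 86056745 to 86079041, minus strand), the third isoform, had 326 counts in library 1 (1.38 CPM per kb) and 323 in library 2 (2.26 CPM per kb). It exceeded the limit 1.81 times in library 1 and 1.43 times in library 2, the smallest margin of any member above background. Per kb, Tgfb1 made up 94.1% of the summed level of the 3 TGF-β ligands in library 1 and 77.0% in library 2. Its ratio to Tgfb3 was 22.5 (95% interval 20.1 to 25.1) in library 1 and 5.61 (4.99 to 6.31) in library 2, so Tgfb1 exceeded Tgfb3 in both. The summed level includes Tgfb2, which lay within background. The median olfactory receptor gene was 2.92 times higher in library 2, and the part of background in the lower share and ratio there was not tested.

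Bmp7 (ENSMUSG00000008999, chromosome 2, 172868012 to 172940321, minus strand), the BMP ligand of the set, was low but above background in both libraries. Its 482 counts in library 1 were 6.89 CPM (6.29 to 7.54), and its 628 counts in library 2 were 14.9 CPM (13.7 to 16.1). Relative to Tgfb1 its level per kb was 0.0554 (95% interval 0.0505 to 0.0607) in library 1 and 0.292 (0.267 to 0.319) in library 2. The balance of the 2 ligands therefore moved toward Bmp7 in library 2. By CPM, Tgfb1 was 2.44 times higher in library 1 and Bmp7 2.16 times higher in library 2. Bmp7 exceeded the background limit of each library by a like factor, 2.25 in library 1 and 2.34 in library 2. The keratinocyte markers were 3.51 times higher in sum in library 2. Keratinocytes are known as a source of BMP7, and the part of these cells and of background in the Bmp7 level was not tested.

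**Figure D1:**
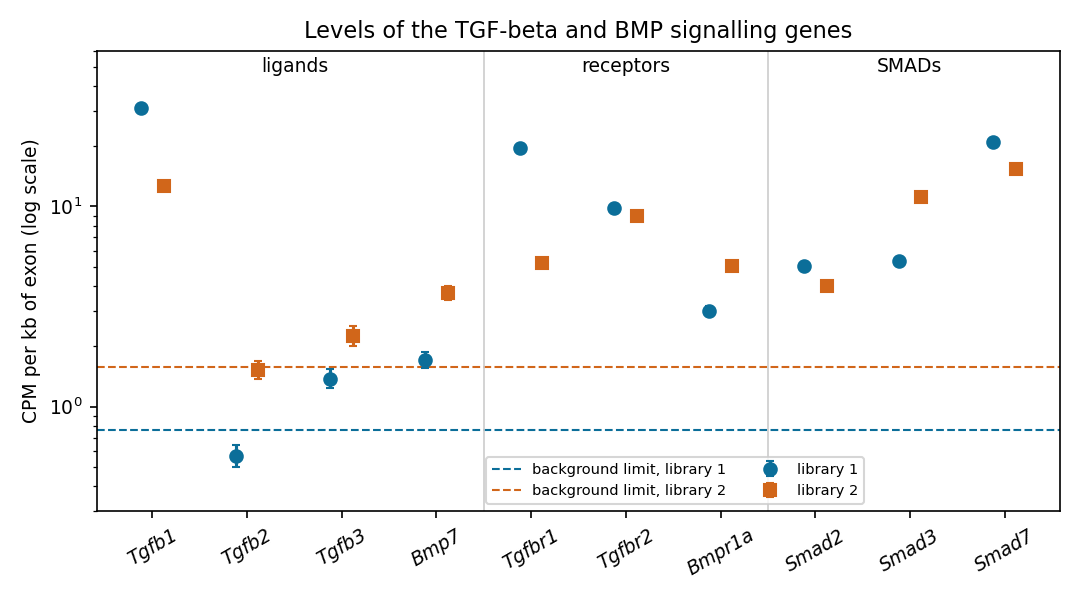
Level of each gene in CPM per kb of exon (log axis) in library 1 (circles) and library 2 (squares), with 95% Poisson intervals for the counts; dashed lines are the background limits of each library, 0.761 and 1.58 CPM per kb. Tgfb1 and Smad7 are highest, and Tgfb2 is the single gene below both limits.

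All 3 receptor genes were above background, and Tgfbr1 had the widest gap between libraries of any member. Tgfbr1 (ENSMUSG00000007613, chromosome 4, 47353222 to 47414931, plus strand), the type I receptor kinase, was counted 8933 times in library 1, against 1433 times in library 2. Its level was 128 CPM (125 to 130.4) in library 1, against 33.9 CPM (32.2 to 35.7) in library 2, with a mean of 80.8 ± 66.4 CPM (SD, n = 2). Tgfbr2 (ENSMUSG00000032440, chromosome 9, 116084293 to 116175360, minus strand), the type II receptor that binds the ligand first, was close between libraries by CPM, at 80.4 CPM in library 1 and 73.6 in library 2, with a mean of 77.0 ± 4.83 CPM (SD, n = 2). The order of the 2 chains was opposite in the libraries. Per kb the ratio of Tgfbr1 to Tgfbr2 was 1.99 (95% interval 1.93 to 2.06) in library 1 and 0.578 (0.542 to 0.615) in library 2. This ratio does not depend on how the libraries are scaled against each other.

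Bmpr1a (ENSMUSG00000021796, chromosome 14, 34410734 to 34503341, minus strand), a type I receptor for BMP ligands, had nearly equal counts, 1339 in library 1 and 1347 in library 2. Per library total these gave 19.1 CPM (18.1 to 20.2) in library 1, against 31.9 CPM (30.2 to 33.6) in library 2. Tgfbr1 was 6.48 times Bmpr1a per kb in library 1 (95% interval 6.12 to 6.87). In library 2 the ratio was 1.03 with an interval of 0.959 to 1.11, which includes equal levels. Tgfbr1 and Bmpr1a transcripts were thus unequal in library 1, and a difference was not detectable in library 2. Other type I receptor genes were not part of this ratio.

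The inhibitory Smad7 was the most abundant SMAD among the members in both libraries. Smad7 (ENSMUSG00000025880, chromosome 18, 75367529 to 75395935, plus strand) was counted 6665 times in library 1, against 2931 times in library 2. Its levels of 95.3 CPM (93.0 to 97.6) in library 1 CPM in library 1 and 69.3 in library 2 (66.9 to 71.9) in library 2 gave a mean of 82.3 ± 18.4 CPM (SD, n = 2). Smad2 (ENSMUSG00000024563, chromosome 18, 76241580 to 76310963, plus strand), a signal transducer of TGF-β, had 44.5 CPM in library 1 and 35.3 in library 2. Smad3 (ENSMUSG00000032402, chromosome 9, 63646767 to 63757994, minus strand), the other transducer, went the opposite way, with 29.5 CPM in library 1, against 61.6 CPM in library 2. The 2 transducers were near each other per kb in library 1, at a Smad2 to Smad3 ratio of 0.953 (95% interval 0.901 to 1.01). In library 2 the ratio was 0.361 (0.339 to 0.385). Smad7 exceeded Smad3 per kb 3.96 times in library 1 (3.77 to 4.17) and 1.38 times in library 2 (1.31 to 1.46).

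The shared partner Smad4 put these values in context. Smad4 stood at 83.9 CPM in library 1 and 65.1 in library 2, and the ratio of Smad2 to Smad4 per kb was 0.224 (95% interval 0.215 to 0.234) in library 1 and 0.229 (0.215 to 0.244) in library 2, intervals that overlap. Of the BMP transducers, Smad1 was at 38.9 CPM in library 1 and 72.2 in library 2 and Smad5 at 28.8 CPM in library 1 and 30.6 in library 2. Of the summed level per kb of the 5 receptor-activated SMAD genes, Smad3 took 25.4% in library 1 and 35.6% in library 2, whereas Smad2 took 24.3% in library 1 and 12.8% in library 2. Smad9, the third BMP transducer, and the inhibitory Smad6, which acts mainly on the BMP branch, were below background in both libraries.

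**Figure D2:**
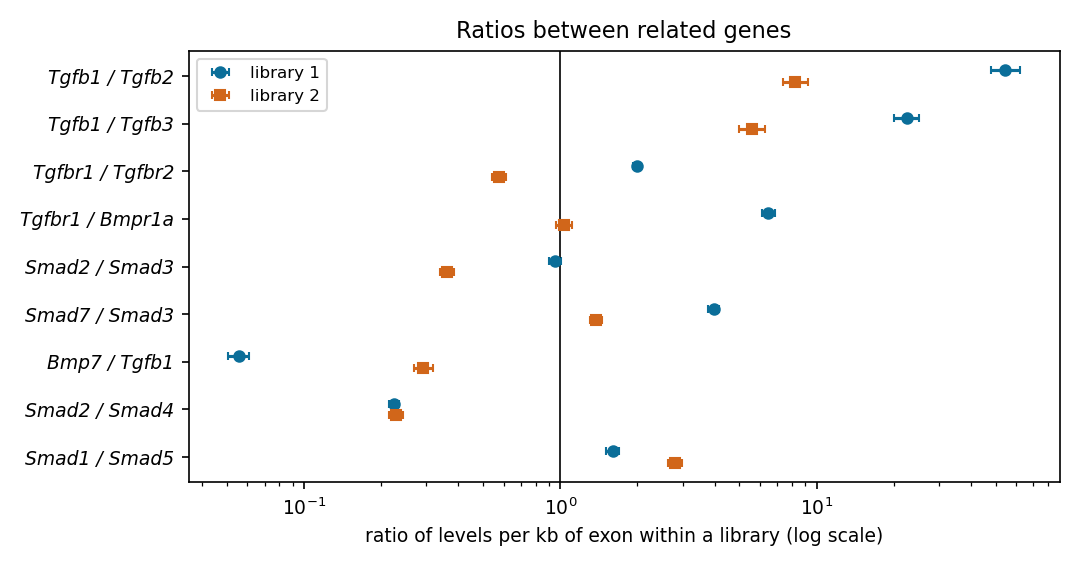
Ratio of the levels per kb of exon of 2 related genes within a library (log axis), with exact conditional 95% intervals for the counts, in library 1 (circles) and library 2 (squares). The Tgfbr1 to Tgfbr2 ratio lies on opposite sides of 1 (1.99 and 0.578), whereas the Smad2 to Smad4 intervals overlap.

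Of the 10 members, 9 were above background in both libraries, against 49.8% of protein-coding genes other than olfactory receptors. The exception was Tgfb2. By mean level per kb the order was Tgfb1 (21.8 ± 12.9), Smad7 (18.2 ± 4.06), Tgfbr1 (12.4 ± 10.2), Tgfbr2 (9.40 ± 0.590), Smad3 (8.22 ± 4.10), Smad2 (4.54 ± 0.745), Bmpr1a (4.02 ± 1.42), Bmp7 (2.71 ± 1.40), Tgfb3 (1.82 ± 0.623) and Tgfb2 (1.05 ± 0.682 CPM per kb, SD, n = 2). Of the 9 pairs of neighbours in this order, only Tgfb3 and Tgfb2 differed by more than the larger of their SDs, by 0.769 against 0.682 CPM per kb. In 5 of the 9 pairs the order was the same in both libraries. Among protein-coding genes, Tgfb1 stood at percentile 95.3 in library 1 and 88.5 in library 2, and Smad7 at 92.8 in library 1 and 90.6 in library 2.

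The replicate libraries were then compared gene by gene, as a measure of how far repeats of one condition lay apart. With TMM scaling, edgeR's exact binomial test, which allows for counting error alone, called 9 of 10 members at an adjusted p of 0.05, against 80.2% of the 30373 genes tested, so the members were close to the background. Of these, 5 were higher in library 1, where the background was 36.1%, and 4 were lower, where it was 44.2%. The member not called was Tgfb3 (edgeR's exact binomial test, adjusted p = 0.0780). A second run of the test used a dispersion of 0.04, which stands for a coefficient of variation of 20% between repeats. It called 2 of 10 members, against 33.6% of all genes. The share of members called was thus not above the background in this run.

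Those 2 were Tgfbr1 and Tgfb1. The log2 ratio of library 1 over library 2 was 2.41 for Tgfbr1 (95% interval 2.33 to 2.50) and 1.79 for Tgfb1 (1.73 to 1.85). With that dispersion, the adjusted p from edgeR was 4.34e-07 for Tgfbr1 and 0.000208 for Tgfb1. Their ratios exceeded those of 98.8% and 96.5% of tested genes, and by CPM Tgfbr1 was 3.77 times and Tgfb1 2.44 times higher in library 1. Log2 ratios of 0.96 for Smad7, 0.84 for Smad2 and 0.63 for Tgfbr2 were also positive. Negative ratios were found for Tgfb2 (-0.93), Bmp7 (-0.61), Smad3 (-0.56), Bmpr1a (-0.23) and Tgfb3 (-0.21).

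These directions held with TMM, total counts and DESeq2 size factors, except that Tgfb3 was at 0.02 once the median olfactory receptor level was subtracted. The median over the 10 members was 0.21 with TMM, against -0.15 over all tested genes, and -0.29 with total counts, against -0.65. Total counts thus moved all ratios by about the same amount, 0.50, and the sign of the members' median depends on the scaling. With TMM, the median over all genes above background in both libraries was 0.33. Over the members above background, a subset chosen after seeing the data, it was 0.63. The background itself differed, since the median olfactory receptor gene was 2.92 times higher in library 2 (0.221 CPM per kb in library 1 and 0.645 in library 2). Tgfb2, which lay within background, was 2.70 times higher in library 2 by CPM. Its TMM log2 ratio was -0.85 after the median olfactory receptor level was subtracted, against -0.93 without.

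**Figure D3:**
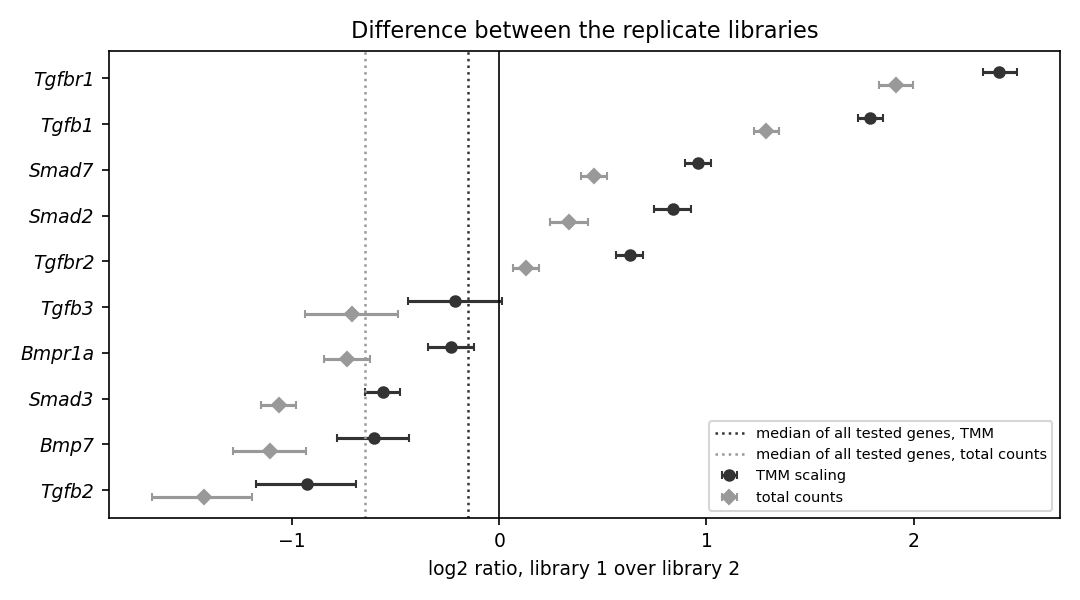
Log2 ratio of library 1 over library 2 for each gene with TMM scaling (circles) and with total counts (diamonds), with 95% intervals for counting error; dotted lines are the medians of all tested genes, -0.15 and -0.65. Tgfbr1 (2.41) and Tgfb1 (1.79) lie farthest from the medians.

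Other measured features of the libraries moved with these ratios. Mature dendritic cell markers, 10 of 12 above background in both libraries and none without counts, summed to 3645 CPM in library 1, against 1029 CPM in library 2. Langerhans cell markers summed to 17086 CPM in library 1 and 8940 in library 2, and monocyte and macrophage markers to 2186 CPM in library 1 and 942 in library 2. Cd74 and Mfge8 made up most of the Langerhans cell sum. Cd207 was close between libraries by CPM, and Epcam (155 CPM in library 1 and 178 in library 2) and Cdh1 (481 CPM in library 1 and 793 in library 2) were higher in library 2. The other Langerhans cell markers were higher in library 1. The keratinocyte markers Krt14 (1315 CPM in library 1 and 4806 in library 2) and Krt5 (904 CPM in library 1 and 3059 in library 2) were higher in library 2. Krt15, in the same list, was higher in library 1 (69.4 CPM in library 1 and 57.3 in library 2). T cell markers summed to 187 CPM in library 1 and 116 in library 2, endothelial markers to 80.9 CPM in library 1 and 43.2 in library 2 and fibroblast markers to 116 CPM in library 1 and 48.7 in library 2, with 4 of 6, 1 of 6 and 0 of 8 genes above background in both. Of the T cell markers, Thy1 ran the other way, at 30.9 CPM in library 1 and 68.3 in library 2. It was the largest part of the library 2 sum. Trac was also higher by CPM in library 2, where it lay within background. Cd3e, Cd3g, Cd3d and Trdc were higher in library 1. The endothelial sum rests on Pecam1, at 52.1 CPM in library 1 and 12.2 in library 2. Flt1, Tek and Emcn were higher by CPM in library 2, within background. The fibroblast sum rests on Col1a1, Col1a2 and Col3a1, while Dcn, Dpt, Mfap5 and Pdgfra were higher by CPM in library 2, within background. Tgfb1, Tgfbr1, Smad7, Smad2 and Tgfbr2 shared the direction of the dendritic cell markers, and Smad3, Bmpr1a and Bmp7 that of most keratinocyte markers. The part of cell makeup, of sex and of background in these ratios was not tested.

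Of 17 genes that hold TGF-β latent or release it, 10 exceeded the background limit in both libraries, a share near the 49.8% of protein-coding genes, and edgeR's exact binomial test called 6 higher and 7 lower in library 1, near the 80.2% of all genes in sum. Their median log2 ratio was -0.05, against -0.15 over all tested genes. Thbs1, which encodes the activator thrombospondin, was at 1010 CPM in library 1, against 2426 CPM in library 2. Furin, the protease that cleaves the TGF-β precursor, was at 331 CPM in library 1 and 190 in library 2, and Mmp14, a membrane protease that can release the latent ligand, at 268 CPM in library 1 and 104 in library 2. Itgav, the integrin chain that pairs with β6 or β8 to activate TGF-β, was close between libraries by CPM, at 122 CPM in library 1 and 125 in library 2.

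Other ligands were scarce. Of 24, 6 were above background in both libraries, against 49.8% of protein-coding genes. Of the 21 tested, 2 were called higher and 15 lower in library 1 by the same test, in sum near the 80.2% of all genes. Over all genes, 36.1% were called higher and 44.2% lower. The median log2 ratio was -0.84 in a list where most genes lay within background. At a dispersion of 0.04, 1 was called higher and 7 lower, against 33.6% of all genes in either direction, and of those 7 only Bmp3 was above background. In library 1, Bmp3 (0.785 CPM per kb) and Bmp1 (0.776 CPM per kb) lay just over the limit of 0.761. Bmp3, a BMP that opposes other BMPs, was at 5.81 CPM in library 1 and 23.4 in library 2, Bmp1, a protease that carries the name of the family, at 6.88 CPM in library 1 and 17.8 in library 2, and Bmp2 at 8.31 CPM in library 1 and 14.5 in library 2. Gdf15, a stress-induced member, was at 7.25 CPM in library 1 and 8.33 in library 2. None of these 4 reached the level per kb of Tgfb1 in either library.

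Of the 13 other receptors and co-receptors with a row, 8 were above background in both libraries, against 49.8% of protein-coding genes. In library 1, 7 were called higher and 4 lower, in sum near the 80.2% of all genes. Their median log2 ratio was 0.14, against -0.15 over all tested genes. Bmpr2, the type II receptor for BMP ligands, was at 134 CPM in library 1 and 117 in library 2. Acvr1b, an activin type I receptor that also signals through SMAD2 and SMAD3, was at 29.6 CPM in library 1 and 43.9 in library 2, Tgfbr3, the co-receptor betaglycan, at 15.8 CPM in library 1 and 33.2 in library 2 and Acvr2a, a type II receptor for activin, at 27.6 CPM in library 1 and 20.5 in library 2. One further listed gene, Hjv, was not matched by symbol. Of the 5 other SMAD genes, 3 were above background in both libraries, against 49.8% of protein-coding genes. In library 1, 3 were called higher and 1 lower, again near 80.2% in sum, with a median log2 ratio of 0.42. Among genes above background the median was also 0.42 for these SMAD genes and 0.33 for all genes.

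Of 19 brakes and cofactors of the pathway, 14 exceeded the background limit in both libraries, against 49.8% of protein-coding genes. In library 1, 12 were called higher and 4 lower, where 36.1% of all genes were called higher and 44.2% lower. The median log2 ratio was 0.65, against -0.15 over all tested genes. Among genes above background it was 0.65 for this list and 0.33 for all genes. At a dispersion of 0.04, 2 were called higher and 1 lower of the 16 tested, against 33.6% of all genes in either direction. Skil, which encodes the SMAD repressor SnoN, was at 515 CPM in library 1, against 228 CPM in library 2, and its relative Ski at 128 CPM in library 1 and 58.2 in library 2. Tgif1, a corepressor, was at 246 CPM in library 1 and 177 in library 2, and Smurf1, a ubiquitin ligase for SMADs and receptors, at 102 CPM in library 1 and 78.8 in library 2. Fst, which encodes the activin antagonist follistatin, ran against them at 6.42 CPM in library 1 and 89.3 in library 2, a log2 ratio of -3.29 (edgeR with a dispersion of 0.04, adjusted p = 2.45e-11).

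Of 18 genes known as SMAD targets, 12 were above background in both libraries, against 49.8% of protein-coding genes. In library 1, 10 were called higher and 2 lower, in sum a share under the 80.2% of all genes. Over all genes, 36.1% were called higher and 44.2% lower. The median log2 ratio was 0.45, against -0.15 over all tested genes. Among genes above background it was 0.69 for the targets and 0.33 for all genes. Tgfbi, a matrix protein induced by TGF-β, had the largest ratio of the list, at 1271 CPM in library 1, against 267 CPM in library 2, a log2 ratio of 2.75 (edgeR with a dispersion of 0.04, adjusted p = 8.83e-09). Cdkn1a, a cell cycle inhibitor, was at 301 CPM in library 1 and 199 in library 2 and Id2, a transcriptional regulator needed by Langerhans cells, at 271 CPM in library 1 and 151 in library 2. These targets also answer to other pathways, so their values do not measure SMAD signalling. Over the 93 distinct genes of these pathway lists with a row, members left out, 51 were above background in both libraries. That share was near the 49.8% of protein-coding genes. The median log2 ratio of the 87 tested was 0.02, against -0.15 over all tested genes. Of those 87, edgeR called 37 higher and 33 lower in library 1 at a dispersion of 0, and 13 higher and 14 lower at 0.04, against the 80.2% and 33.6% of all genes given above. Of the SMAD targets, 6 were called higher and 1 lower at 0.04.

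**Figure D4:**
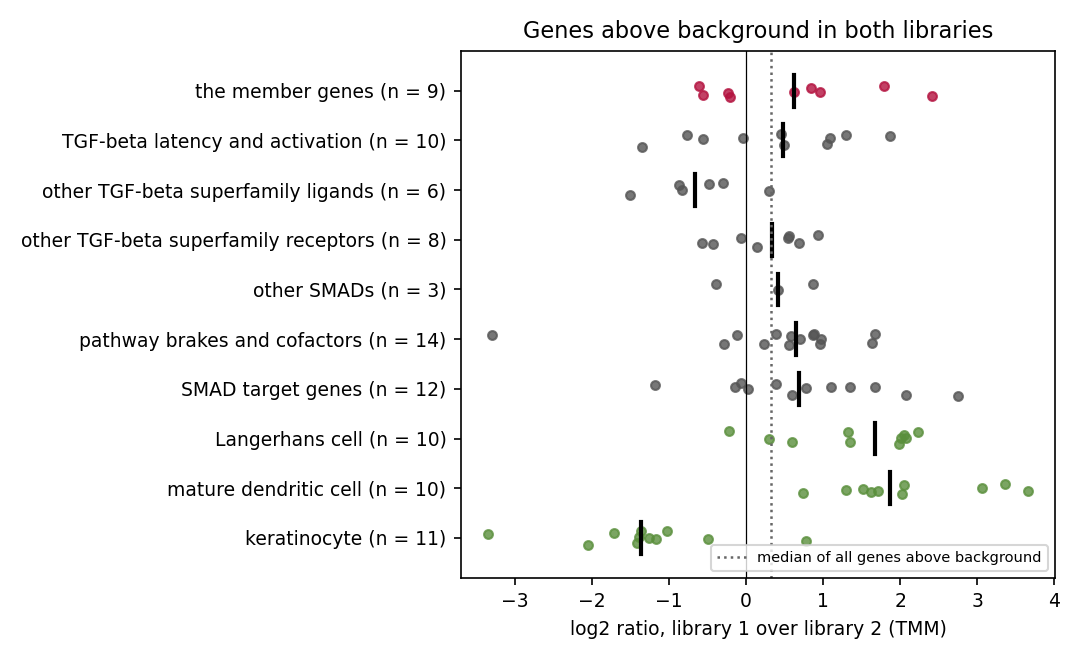
Log2 ratio of library 1 over library 2 (TMM scaling) for genes above background in both libraries, 1 point per gene and a bar at each list's median, for 9 of the 10 members, the pathway lists and 3 cell marker lists; the dotted line is the median of all genes above background (0.33). Mature dendritic cell markers (median 1.87) lie to the right and most keratinocyte markers (median -1.37) to the left.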

How the data were processed

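RNA was sequenced from 2 samples of sorted, stimulated Langerhans cells, made into libraries with a stranded low-input kit from 10 to 70 ng of RNA, per the labels' protocols. The authors deposited raw counts for each Ensembl gene. Trimmomatic, HISAT2, SAMtools, StringTie and GRCm38 appear in the submitters' processing notes. Not given in the sources used here were the versions, the annotation release, strand use and the unit counted (reads or pairs). A final row of column totals was not used.

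The column without a replicate number is library 1, the one numbered 2 is library 2. Nothing says that they came from separate cultures, so p-values concern only these libraries. They set the difference between the libraries against counting error alone, or against counting error plus an assumed dispersion. No spread between repeats was estimated for the tests. Symbols, positions and exon lengths (union of exons) came from GENCODE M21. Exons of Tgfb2, Tgfb3 and Bmpr1a overlap opposite-strand genes, by up to 7.60% of the member's exon length, so counts in those stretches may come from either gene.

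Genes with at least 1 CPM in 1 library were compared (edgeR 4.0.16, R 4.3.3; TMM; prior count 1; binomial test with effective library sizes, chi-square for large sums; Benjamini-Hochberg at 0.05), which was tested on simulated data. A quasi-likelihood test needs residual degrees of freedom, which 1 group of 2 compared within itself does not leave. A dispersion of 0.04, DESeq2 1.42.0 size factors, total counts, other filters and other backgrounds were alternatives. Intervals are exact 95% Poisson or conditional binomial ones (SciPy 1.17.1) and cover counting error only; a count of 0 allows 3 counts (library 1, 0.0429 CPM; library 2, 0.0710 CPM).

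All 10 members are named, and from each pathway list the 4 genes above background with the highest mean CPM, plus the called gene with the largest ratio. From marker lists up to 3 are named, with further markers where they carry the sum of their list or run against it. Smad6 and Smad9 are named besides. The members and lists were chosen with earlier results of these data known. No genes of like pattern were sought, since a pattern over 2 libraries is a single ratio.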

Additional observations from a re-analysis of the deposited data

How the results depend on the processing

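The number of members above background in both libraries was 9, and 8 to 10 with the other background limits tried. The 51 other pathway genes above background numbered 43 to 74. With a dispersion of 0.04 in place of 0, 2 of 10 members were called between the libraries instead of 9. The median log2 ratio of the members, 0.21 with TMM, was -0.29 with total counts and 0.31 with DESeq2 size factors. In an alternative chosen after seeing the data, it was 0.63 over the members above background, against 0.33 over all genes above background. Tgfb3 had a log2 ratio of 0.0209 once the median olfactory receptor level was subtracted, against -0.21 without. It was called with total counts, at -0.71. The ratio of Smad2 to Smad3 in library 1 was 1.51 from counts without length correction, against 0.953 per kb, because Smad2 has the longer exons. The mean level of each member moved by less than its SD under every scaling. No paired analysis was possible because there is only 1 group. With 2 libraries the precision is set by their spread, which exceeds counting error for 9 of 10 members with TMM and for all 10 with total counts.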

Other observations

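The activin branch, which shares SMAD2 and SMAD3 with TGF-β, had its ligand and its antagonist in opposite balance in the libraries. These genes were chosen after their values were seen. Inhba, which encodes the activin A subunit, was at 34.9 CPM in library 1, against a background-level 7.17 CPM in library 2. Per kb, the ratio of Inhba to the follistatin gene Fst was 3.90 (95% interval 3.53 to 4.32) in library 1 and 0.0576 (0.0511 to 0.0648) in library 2.

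Further genes chosen the same way act in Langerhans cells or the epithelium. Runx3, a transcription factor that Langerhans cells need, was at 249 CPM in library 1, against 83.5 CPM in library 2. Axl, a receptor kinase that TGF-β induces in these cells, was at 40.5 CPM in library 1 and 56.5 in library 2, or 0.02 as a log2 ratio (TMM; -0.48 from total counts). Id1, a BMP target, was at 12.8 CPM in library 1 and 11.9 in library 2, while its relative Id3 was at 16.0 CPM in library 1 and 51.4 in library 2. Itgb6, the epithelial integrin chain that activates TGF-β, was within background in library 1 at 3.75 CPM and above it in library 2 at 49.9 CPM.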
